A study of Mus musculus with 28 samples.

Results

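The 10 genes described here encode AP-1 subunits and other immediate early transcription factors: Fos, Fosb, Fosl1, Fosl2, Jun, Junb, Jund, Egr1, Klf2 and Klf4. All probe sets annotated with 1 of these symbols were taken, which gave 15 probe sets of the 34945 tested, and 10 of 18193 genes. Fosl1, Fosl2, Jun, Jund and Klf4 had 2 probe sets each and the other 5 genes had 1. RNA came from bone marrow-derived macrophages of C57BL/6 J mice aged 12 weeks, cells grown in culture from marrow precursors. In the compound experiment the 4 groups were Nrf2-/- cells (KO) with RA839, KO cells with the solvent DMSO, Nrf2+/+ cells (WT) with RA839 and WT cells with DMSO. RA839 is a small molecule that binds Keap1, all 4 groups contained DMSO at 0.2% and the incubation lasted 4 h. Keap1 was knocked down in WT cells with siKeap1-1 or siKeap1-2 in the siRNA experiment, and siControl was the control siRNA. Each of the 7 groups held 4 arrays, which the series describes as biological replicates, and the labels do not say which mice or cultures gave which array. No source used here states the dose of RA839, which siRNA sequences were used or how long after transfection the cells were taken.

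AP-1 is a dimer of a Jun protein with a Fos protein or another basic leucine zipper protein, and it binds a short DNA site in the promoters and enhancers of genes for growth, matrix turnover and inflammation. Fos, Fosb, Junb and Egr1 are immediate early genes: mitogen-activated protein kinases switch them on within minutes of a stimulus, through serum response factor with its ternary complex partners and through CREB, without new protein synthesis, and feedback inhibitors soon end the burst. In macrophages these factors take part in responses to growth factors and bacterial products, and the Krüppel-like factors Klf2 and Klf4 are known to restrain or shape inflammatory gene expression. Nrf2, encoded by Nfe2l2, also carries a leucine zipper and pairs with small Maf proteins to drive antioxidant genes, and Keap1 keeps it low by directing its degradation.

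The values are log2 expression values, 1 per probe set and array, and a difference of 1 is a 2-fold change. Nfe2l2 averaged 3.27 and 3.40 in KO cells with RA839 and with DMSO, against 12.30 and 12.72 in WT cells with RA839 and with DMSO. Keap1 averaged 9.06 with siKeap1-1 and 9.26 with siKeap1-2, against 11.09 with siControl. Both checks match the labels. The mean of 10 macrophage markers lay between 12.2 and 13.2 on every array, while the means of 8 lists of other cell types stayed between 4.08 and 8.91. WT RA839 array 2 stood apart in RNA quality: its 3′ Gapdh control probes exceeded the 5′ ones by 3.74 on the log2 scale, against at most 1.00 on the other 15 arrays. Results that rest on this array are given below without it, or without both WT arrays numbered 2. The fits that pair same-numbered arrays were not repeated without it. In RNA from whole cultures, fewer cells of a type and less RNA per cell cannot be told apart.

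Fos, Junb and Klf4 are shown by promoter, since these 3 genes were lower with both Keap1 siRNAs and had a promoter in the RefSeq table used. Such promoters were read for 8 of the 10 genes. Those of Fosl1 and Egr1 were not read, so the motif counts below do not cover these genes. The windows printed here are the 250 bases before the start of transcription in GRCm38.p6. They lie at chr12:85473640-85473889 on the plus strand for Fos, chr8:84978749-84978998 on the minus strand for Junb and chr4:55532476-55532725 on the minus strand for Klf4. Each sequence runs 5′ to 3′ along the gene, and capitals mark the short cyclic AMP response motif TGACG on either strand (CGTCA where it is reversed) and the TATA box TATAAA.
Fos promoter: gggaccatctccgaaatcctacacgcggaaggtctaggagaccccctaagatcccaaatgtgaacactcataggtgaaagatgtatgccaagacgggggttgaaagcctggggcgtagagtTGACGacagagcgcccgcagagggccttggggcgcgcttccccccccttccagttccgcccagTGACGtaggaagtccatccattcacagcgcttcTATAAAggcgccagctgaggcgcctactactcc
Junb promoter: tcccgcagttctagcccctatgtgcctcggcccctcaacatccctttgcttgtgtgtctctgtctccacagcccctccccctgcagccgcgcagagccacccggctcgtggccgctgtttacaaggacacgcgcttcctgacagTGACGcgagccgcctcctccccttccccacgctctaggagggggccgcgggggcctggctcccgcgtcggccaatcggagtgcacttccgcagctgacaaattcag
Klf4 promoter: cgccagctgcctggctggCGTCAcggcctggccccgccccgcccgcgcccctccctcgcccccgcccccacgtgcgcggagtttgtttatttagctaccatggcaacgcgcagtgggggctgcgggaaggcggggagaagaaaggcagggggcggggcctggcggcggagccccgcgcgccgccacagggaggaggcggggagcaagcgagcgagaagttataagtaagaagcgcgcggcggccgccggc
Fos holds 2 such motifs, with first bases 129 and 66 before the start, and a TATA box at 33. Junb holds 1 at 106, and Klf4 holds 1 reversed motif at 232. Fosb and Klf2 also hold 1 each, so 5 of 8 windows have one, against 17.8% of 32851 promoter windows of the same length. None of the 8 windows holds an AP-1 site TGANTCA, the full response element TGACGTCA or the antioxidant response element core TGACNNNGC, which were searched on both strands and are found in 6.75%, 1.55% and 10.2% of all windows. TGACNNNGC can overlap TGACG, as TGACGTCA does. A match describes the letters only, and no match says only that these letters are not in this window.

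**Figure D1:**
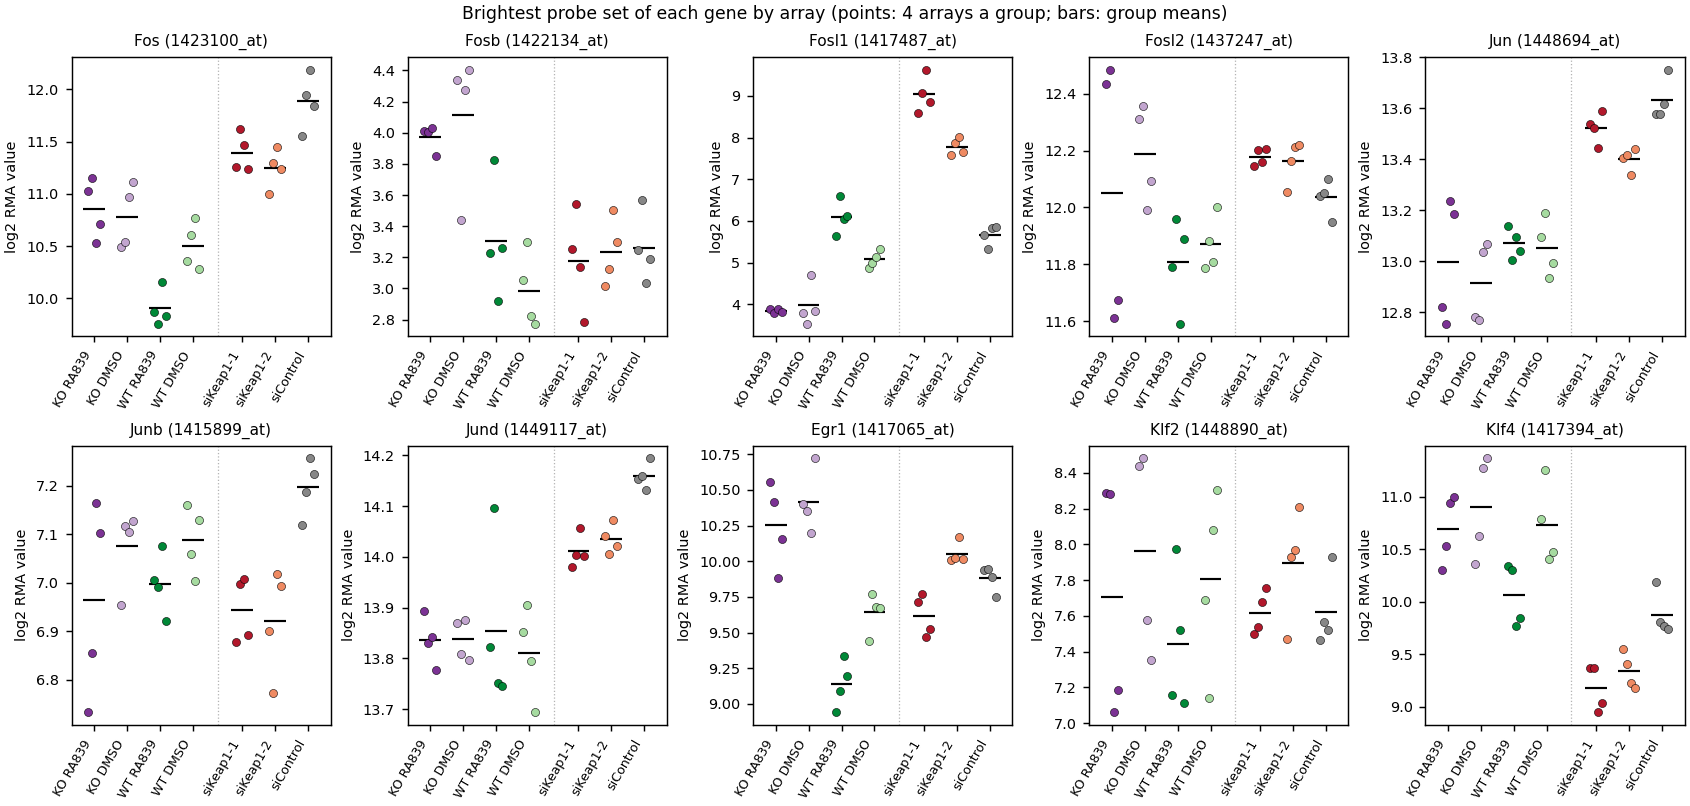
log2 RMA value (vertical axis) of the brightest probe set of each of the 10 genes on 28 arrays, by group (horizontal axis), with 4 points and a mean bar per group, and a dotted line between the compound and the siRNA experiment. Fosl1 shows the widest spread of group means, with all siKeap1-1 arrays above 8.5 and all siControl arrays below 5.9, and the vertical scale differs between panels.

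Fosl1 was higher with both Keap1 siRNAs, and Fos, Junb and Klf4 were lower. In KO cells Egr1 and Fosb were higher than in WT cells under either treatment, and Fos was higher under RA839. For Fosl1 and for Jun, 1 of 2 probe sets was lower in KO cells under either treatment. RA839 itself moved no probe set of the 10 genes past the threshold in WT or KO cells in the fit without pairing. Under some alternative settings of that fit, 1 of 2 Fosl1 probe sets passed as higher in WT cells. With the pairing of same-numbered arrays in the model, 1 of 2 Fosl1 probe sets rose and both Klf4 probe sets fell in WT cells. With that pairing 558 of all probe sets passed in WT cells, against 147 without it. These paired fits kept WT RA839 array 2, whose RNA stood apart. The threshold throughout is a limma adjusted p under 0.05 over all 34945 probe sets.

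For RA839 against DMSO in WT cells, 0 of the 15 probe sets passed limma's threshold, and 0.421% of all probe sets passed (0.366% higher, 0.0544% lower). At an unadjusted p under 0.05 there were 5 of 15, against 9.84% of all probe sets. RA839 and DMSO arrays did not overlap for 6 of the 15 probe sets in WT cells, against 5.29% of all, and for 0 of 15 in KO cells, against 2.07% of all. For RA839 in KO cells 0 of 15 passed, with 0 of 15 and 1.66% of all probe sets at an unadjusted p under 0.05, and 0% of all passed. The difference between the genotypes' RA839 responses also gave 0 of 15 by limma, with 0.0486% of all probe sets passing, and 2 of 15 unadjusted, against 3.61% of all. Between KO and WT cells 4 of 15 passed in DMSO (2 higher, 2 lower), where 22.6% of all probe sets did (10.5% higher, 12.1% lower), and 5 of 15 under RA839 (3 higher, 2 lower), where 28.2% did (14.4% higher, 13.8% lower). KO and WT arrays did not overlap for 4 of 15 in DMSO and 5 of 15 under RA839, against 27.7% and 29.0% of all. Those shares of members lie near the background. With siKeap1-1, 6 of 15 probe sets passed (2 higher, 4 lower), against 12.4% of all (6.76% higher, 5.59% lower). With siKeap1-2, 8 of 15 passed (2 higher, 6 lower), against 8.77% of all (4.75% higher, 4.01% lower). Both probe sets of Fosl1, Jun and Klf4 are among these 8. By the brightest probe set of each of the 10 genes, 1 was higher and 3 lower with siKeap1-1, where 13.6% of 18193 genes passed. With siKeap1-2, 1 gene was higher and 4 lower, where 9.77% passed. Groups did not overlap for 8 of 15 with siKeap1-1 and 10 of 15 with siKeap1-2, against 18.1% and 18.3% of all. The 2 siRNA comparisons share the siControl arrays. The median difference of the 15 probe sets was -0.11 with siKeap1-1 and -0.09 with siKeap1-2, beside 0.01 over all probe sets in either comparison.

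**Figure D2:**
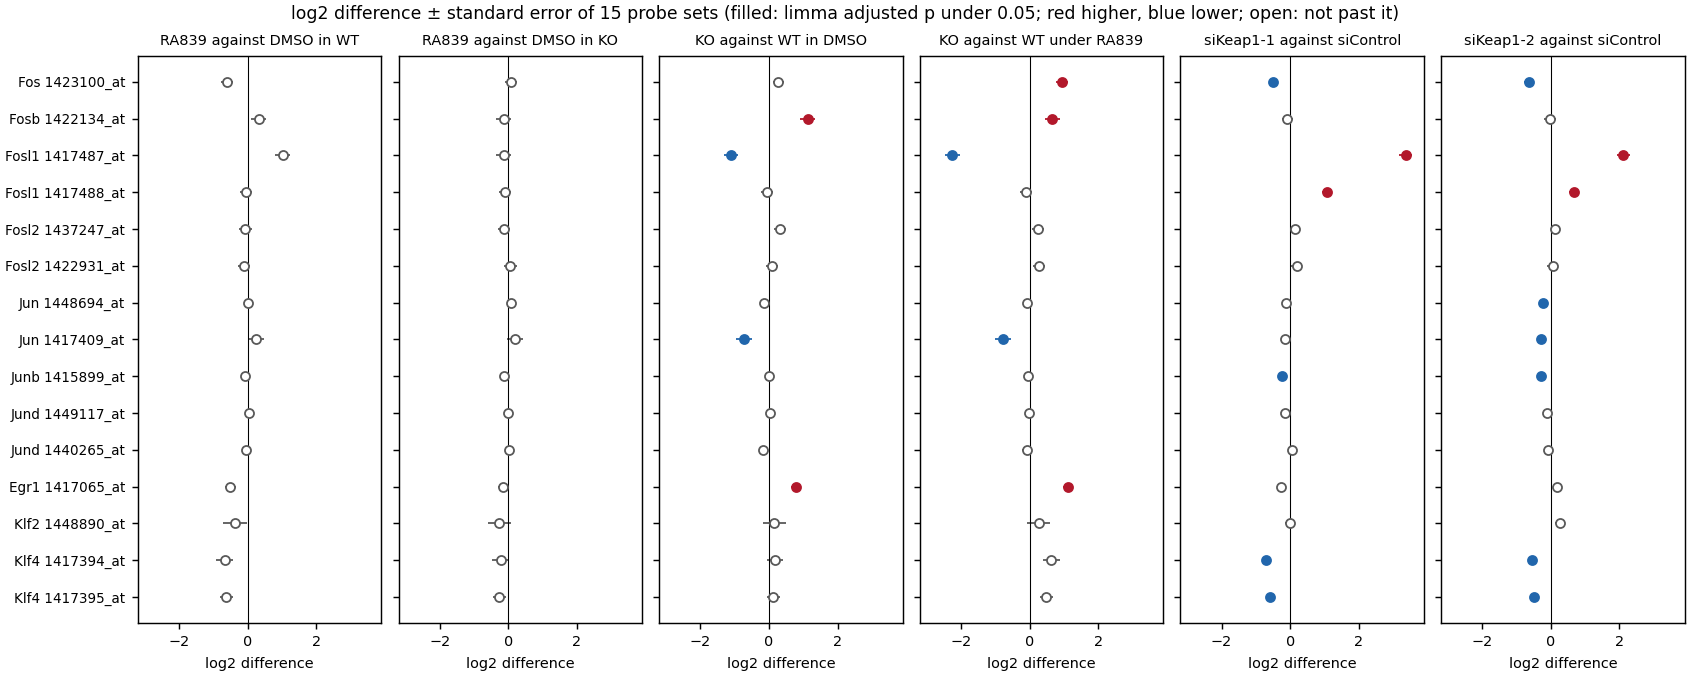
log2 difference with its standard error (horizontal axis, 4 arrays per group) of the 15 probe sets (rows) in 6 comparisons (panels), with filled points past a limma adjusted p of 0.05, red for higher and blue for lower. Fosl1 1417487_at reaches 3.36 with siKeap1-1 and -2.26 in KO cells under RA839, and no point is filled for RA839 against DMSO.

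Fosl1 encodes Fra-1, a Fos family subunit that lacks the strong transactivation domain of c-Fos. Its probe set 1417487_at read 8.59, 9.08, 9.63 and 8.85 with siKeap1-1 and 7.58, 7.88, 8.01 and 7.66 with siKeap1-2, against 5.65, 5.34, 5.83 and 5.86 with siControl. The 3 groups did not overlap, so Fosl1 was necessarily higher in 4 of 4 same-numbered arrays with each siRNA. The rise with siKeap1-1 was 3.36 ± 0.20 (SE), 10.3-fold, with an adjusted p of 9.69e-07, the 5th largest rise of 34945 probe sets. With siKeap1-2 it was 2.11 ± 0.20, 4.32-fold, with an adjusted p of 3.72e-05 and rank 40 by rise. The level was 1.25 ± 0.20 higher with siKeap1-1 than with siKeap1-2 (adjusted p = 0.0029). The second Fosl1 probe set, 1417488_at, rose by 1.07 with siKeap1-1 (adjusted p = 0.000256) and by 0.68 with siKeap1-2 (adjusted p = 0.00768).

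In the compound experiment Fosl1 1417487_at read 3.88, 3.80, 3.88 and 3.82 in KO cells with RA839 and 3.80, 3.54, 4.71 and 3.85 in KO cells with DMSO. In WT cells it read 5.64, 6.60, 6.04 and 6.12 with RA839 and 4.87, 5.002, 5.13 and 5.32 with DMSO. Every KO array was below every WT array, WT RA839 arrays lay above WT DMSO arrays, and the 2 KO groups overlapped, so the order was WT RA839, WT DMSO, then both KO groups together. Fosl1 was 4.78-fold lower in KO than in WT cells under RA839 (-2.26 ± 0.22, adjusted p = 2.66e-06) and 2.15-fold lower in DMSO (-1.11 ± 0.22, adjusted p = 0.00197). The DMSO difference was -0.80 with an adjusted p of 0.0588 when the KO arrays numbered 1 and 2 were left out.

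For RA839 against DMSO in WT cells the difference of Fosl1 1417487_at was 1.02 ± 0.22, 2.03-fold, and missed the threshold (adjusted p = 0.0572). The 2 groups did not overlap, so it was necessarily higher in 4 of 4 same-numbered pairs, by 0.77, 1.60, 0.91 and 0.80. The largest of these differences came from array 2, whose RNA stood apart. The RA839 difference passed with the replicate number as a block (adjusted p = 0.0305). Without the block it passed with a trended robust prior (0.0487), quantile normalization (0.0479), array weights (0.0361) or 1 probe set per gene (0.0442). It also passed without WT RA839 array 1 (0.0314) and missed in the other fits. Without both WT arrays numbered 2 the difference was 0.83 (adjusted p = 0.239) in the fit without the block. The RA839 difference was -0.13 in KO cells and 1.02 in WT cells, and their difference, the WT response minus the KO response, was 1.15 ± 0.31 with an adjusted p of 0.613. Probe set 1417488_at read between 4.46 and 5.28 in all 4 compound groups, and all 4 groups overlapped. The platform annotation gives both probe sets the same transcript record, and their compound results differ.

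Fos encodes c-Fos, an AP-1 subunit whose RNA rises and decays quickly after a stimulus. It read 11.25, 11.62, 11.47 and 11.23 with siKeap1-1 and 11.00, 11.29, 11.45 and 11.23 with siKeap1-2, against 11.56, 11.95, 12.19 and 11.84 with siControl. The siKeap1-2 arrays lay below every siControl array, and the siKeap1-1 arrays overlapped siControl at 1 array of each group. Fos was 1.40-fold lower with siKeap1-1 (-0.49 ± 0.14, adjusted p = 0.0366) and 1.56-fold lower with siKeap1-2 (-0.64 ± 0.14, adjusted p = 0.0122). The siKeap1-1 call was lost when siControl array 2, 3 or 4 or siKeap1-1 array 1, 3 or 4 was left out, with values from -0.39 to -0.52 and adjusted p up to 0.103. It was also lost when only these 2 groups were fitted (adjusted p = 0.0609).

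In the compound experiment Fos read 11.03, 11.15, 10.53 and 10.71 in KO cells with RA839 and 10.50, 10.54, 10.97 and 11.11 in KO cells with DMSO. WT cells read 9.87, 9.76, 10.15 and 9.83 with RA839 and 10.35, 10.61, 10.77 and 10.28 with DMSO. The lowest 4 arrays were the WT RA839 arrays, which overlapped no other group, while neighbouring groups above them overlapped. Under RA839, Fos was 1.93-fold higher in KO than in WT cells (0.95 ± 0.17, adjusted p = 0.000708). In DMSO the difference was 0.27 ± 0.17 (adjusted p = 0.267), and 0.54 with an adjusted p of 0.0395 without the KO arrays numbered 1 and 2. RA839 gave -0.60 ± 0.17 in WT cells, without overlap and so necessarily lower in 4 of 4 pairs, but with an adjusted p of 0.203. Its largest pair difference, -0.85, came from arrays 2, and without both of these it was -0.52 (adjusted p = 0.472). The KO pairs went both ways, at 0.53 and 0.61 for numbers 1 and 2 and -0.44 and -0.40 for numbers 3 and 4. The WT response minus the KO response was -0.68 ± 0.24 (adjusted p = 1).

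Fosb encodes a Fos family subunit best known for its long-lived splice form in neurons. Its probe set was dim, at the 14.96th percentile of probe sets in the compound experiment, where RMA values compress differences. It read 4.01, 4.01, 4.03 and 3.85 in KO cells with RA839 and 4.34, 3.44, 4.27 and 4.40 in KO cells with DMSO, against 3.23, 3.83, 2.92 and 3.26 in WT cells with RA839 and 3.05, 3.30, 2.82 and 2.77 in WT cells with DMSO. All KO arrays lay above the WT arrays of the same treatment. Fosb was higher in KO cells by 1.13 ± 0.21 in DMSO (adjusted p = 0.00124). Under RA839 it was higher by 0.67 ± 0.21 (adjusted p = 0.0259), a call lost in 6 of 8 fits that left out 1 array (WT RA839 1, 3 or 4 or KO RA839 1, 2 or 3 in turn gave adjusted p from 0.0536 to 0.0801). Without both WT arrays numbered 2 it was 0.84 (adjusted p = 0.00558), and the call was lost without the KO arrays numbered 1 and 2 (0.63, adjusted p = 0.0648) or 3 and 4 (0.70, adjusted p = 0.0918). The siRNA groups overlapped, between 2.78 and 3.57.

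Fosl2 encodes Fra-2, the other Fra subunit of AP-1. Its 1437247_at values with RA839 in KO cells were 12.43, 12.48, 11.61 and 11.68, and with DMSO in KO cells 12.31, 12.36, 11.99 and 12.09, while WT arrays ran from 11.59 to 11.96 with RA839 and from 11.79 to 12.00 with DMSO. In both KO groups arrays 1 and 2 were above arrays 3 and 4. Neither Fosl2 probe set passed the threshold in any comparison, with KO minus WT at 0.24 under RA839 and 0.32 in DMSO for 1437247_at. Without the KO arrays numbered 3 and 4 these were 0.65 (adjusted p = 0.00378) and 0.46 (adjusted p = 0.0271). With siKeap1-1 and siKeap1-2 the differences were 0.14 and 0.13, with adjusted p of 0.141 and 0.216.

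Jun encodes c-Jun, the main transactivating Jun subunit and the substrate of the Jun N-terminal kinases. Its probe set 1417409_at read 10.28, 10.17, 11.38 and 11.14 in KO cells with RA839 and 10.22, 10.21, 10.96 and 10.82 in KO cells with DMSO. WT cells read 11.39, 11.47, 11.65 and 11.53 with RA839 and 11.14, 11.20, 11.35 and 11.38 with DMSO. All KO arrays were below the WT arrays of the same treatment, and KO arrays 1 and 2 were the lowest under both treatments. The KO difference was -0.77 ± 0.24 under RA839 (adjusted p = 0.0242) and -0.72 ± 0.24 in DMSO (adjusted p = 0.0399). Without KO arrays 1 and 2 it was -0.25 (adjusted p = 0.175) under RA839 and -0.38 (adjusted p = 0.0557) in DMSO, and without KO arrays 3 and 4 it was -1.29 and -1.06. In DMSO the call was also lost without any 1 of the WT DMSO arrays, without KO array 1 or 2, or with array weights (adjusted p from 0.0543 to 0.112). Without both WT arrays numbered 2 it was -0.74 (adjusted p = 0.0612) in DMSO and -0.79 (adjusted p = 0.0494) under RA839. Under RA839 it was lost without WT array 3 or KO array 1 or 2 and when only these groups were fitted (adjusted p from 0.0564 to 0.0814). The brighter Jun probe set, 1448694_at, gave -0.07 under RA839 and -0.14 in DMSO with overlapping groups, so the 2 probe sets disagree.

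Both Jun probe sets were lower with siKeap1-2. The first, 1448694_at, read 13.41, 13.42, 13.34 and 13.44 with siKeap1-2, against 13.58, 13.58, 13.62 and 13.75 with siControl, a difference of -0.23 ± 0.06 (adjusted p = 0.031). The second, 1417409_at, fell by 0.29 with siKeap1-2 (adjusted p = 0.0137). Neither siKeap1-2 group overlapped siControl, and the 1448694_at call was lost in 6 of 8 fits that left out 1 array (siControl 2, 3 or 4 or siKeap1-2 1, 2 or 3, with adjusted p from 0.054 to 0.0915). With siKeap1-1 the differences were -0.11 and -0.16, with adjusted p of 0.294 and 0.141.

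Junb encodes a Jun subunit that can oppose c-Jun at some promoters. It read 6.88, 6.997, 7.01 and 6.89 with siKeap1-1 and 6.90, 6.77, 7.02 and 6.99 with siKeap1-2, against 7.12, 7.19, 7.26 and 7.22 with siControl. All 8 knockdown arrays lay below all siControl arrays. The differences were small, -0.25 ± 0.07 with siKeap1-1 (adjusted p = 0.0288) and -0.28 ± 0.07 with siKeap1-2 (adjusted p = 0.0247). Each call was lost in 5 fits that left out 1 array, siControl 2, 3 or 4 or siKeap1-1 1 or 4 for siKeap1-1, and siControl 2, 3 or 4 or siKeap1-2 1 or 2 for siKeap1-2, with adjusted p up to 0.0842. A trended robust prior gave 0.0542 for siKeap1-1. In the compound experiment Junb ran from 6.73 to 7.17 with all groups overlapping and no call.

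Jund encodes the Jun subunit that resting cells hold at a steady level. Its 1449117_at values were 13.98, 14.00, 14.06 and 14.00 with siKeap1-1 and 14.04, 14.01, 14.07 and 14.02 with siKeap1-2, against 14.15, 14.16, 14.13 and 14.19 with siControl. Every knockdown array was below every siControl array, though the differences of -0.15 ± 0.05 and -0.12 ± 0.05 missed the threshold (adjusted p = 0.0662 with siKeap1-1 and 0.145 with siKeap1-2). A trended robust prior gave adjusted p of 0.00236 and 0.0104, and brighter probe sets alone gave 0.0126 and 0.0368. The siKeap1-1 difference also passed with array weights (0.0369), 1 probe set per gene (0.037), the replicate block (0.0456) or without siKeap1-1 array 3 (0.0433). Both missed in the other fits. In the compound groups the means of 1449117_at lay between 13.81 and 13.85. The second Jund probe set, 1440265_at, overlapped in every comparison with a control group.

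Egr1 encodes a zinc finger factor induced by the ERK pathway and used in macrophage differentiation. It read 10.56, 10.41, 9.89 and 10.16 in KO cells with RA839 and 10.40, 10.35, 10.19 and 10.72 in KO cells with DMSO, against 8.94, 9.09, 9.34 and 9.19 in WT cells with RA839 and 9.44, 9.77, 9.68 and 9.67 in WT cells with DMSO. Every KO array was above every WT array, the KO groups overlapped each other, and the WT RA839 arrays were the lowest. Egr1 was 2.16-fold higher in KO cells under RA839 (1.11 ± 0.15, adjusted p = 5.82e-05) and 1.71-fold higher in DMSO (0.78 ± 0.15, adjusted p = 0.00145). RA839 gave -0.50 ± 0.15 in WT cells, without overlap and so necessarily lower in 4 of 4 pairs (adjusted p = 0.228). In KO cells RA839 gave -0.16 ± 0.15, with overlap. The largest WT pair difference, -0.68, came from arrays 2, and without them the WT value was -0.44 (adjusted p = 0.483).

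The 2 Keap1 siRNAs differed for Egr1. It read 9.71, 9.77, 9.47 and 9.53 with siKeap1-1 and 10.01, 10.02, 10.17 and 10.01 with siKeap1-2, against 9.94, 9.94, 9.89 and 9.75 with siControl. The siKeap1-2 arrays were above siControl and the siKeap1-1 arrays were mostly below it, overlapping at 1 array. Egr1 was 1.35-fold lower with siKeap1-1 than with siKeap1-2 (-0.43 ± 0.08, adjusted p = 0.00744). Of the 15 probe sets, Egr1 and Fosl1 1417487_at were the 2 past the threshold between the siRNAs, where 5.54% of all probe sets passed (2.54% higher, 2.99% lower), and 3 of 15 did not overlap, against 11.6% of all. Against siControl the differences were -0.26 ± 0.08 with siKeap1-1 (adjusted p = 0.0516) and 0.17 ± 0.08 with siKeap1-2 (adjusted p = 0.23). The siKeap1-1 difference passed with a trended robust prior (0.037), brighter probe sets (0.0221), quantile normalization (0.032), 1 probe set per gene (0.0406) or the replicate block (0.0373). It also passed without siControl array 4 (0.0412) or siKeap1-1 array 2 (0.032), and missed in the other fits.

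Klf4 encodes a Krüppel-like factor that promotes monocyte differentiation. Its probe set 1417394_at read 9.37, 9.37, 8.95 and 9.03 with siKeap1-1 and 9.55, 9.41, 9.23 and 9.18 with siKeap1-2, against 10.19, 9.81, 9.76 and 9.74 with siControl. No knockdown array reached a siControl array. Klf4 was 1.62-fold lower with siKeap1-1 (-0.70 ± 0.13, adjusted p = 0.00419) and 1.45-fold lower with siKeap1-2 (-0.54 ± 0.13, adjusted p = 0.0238). The siKeap1-2 call was lost without siControl array 1 (-0.43, adjusted p = 0.0556) or siKeap1-2 array 3 or 4 (adjusted p of 0.0691 and 0.0639). The second probe set, 1417395_at, gave -0.60 (adjusted p = 0.00329) and -0.50 (adjusted p = 0.0124).

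In the compound experiment Klf4 1417394_at read 10.30, 10.53, 10.94 and 11.00 in KO cells with RA839 and 10.36, 10.62, 11.28 and 11.37 in KO cells with DMSO. WT cells read 10.34, 10.30, 9.76 and 9.84 with RA839 and 10.79, 11.26, 10.41 and 10.47 with DMSO. The WT RA839 arrays lay below all WT DMSO arrays, and KO arrays 3 and 4 were above KO arrays 1 and 2. RA839 gave -0.67 ± 0.25 and -0.62 ± 0.19 for the 2 probe sets in WT cells, with adjusted p of 0.377 and 0.251. The WT groups overlapped for neither probe set, so both were necessarily lower in 4 of 4 pairs. For 1417394_at the largest pair difference, -0.96, came from arrays 2, and without both arrays numbered 2 the values were -0.57 and -0.61 (adjusted p of 0.581 and 0.369). With the replicate number as a block, both fell (adjusted p of 0.0103 and 0.00706), in a fit that kept arrays 2. In KO cells the RA839 differences were -0.22 and -0.26, also lower in 4 of 4 pairs (adjusted p = 1 for each). The WT response minus the KO response was -0.46 ± 0.35 and -0.36 ± 0.27 (adjusted p = 1 for each).

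The KO minus WT difference of Klf4 1417394_at was 0.63 under RA839 and 0.18 in DMSO, with adjusted p of 0.0671 and 0.655. Leaving out the KO arrays numbered 1 and 2 gave 0.91 (adjusted p = 0.0189) under RA839, and leaving out those numbered 3 and 4 gave 0.35 (adjusted p = 0.338). Without both WT arrays numbered 2 it was 0.71 (adjusted p = 0.0498), and with array weights 0.77 (adjusted p = 0.0207). Probe set 1417395_at passed in these same 2 fits, at 0.58 and 0.61 (adjusted p of 0.0386 and 0.0179). It also passed without the KO arrays numbered 1 and 2, at 0.73 (adjusted p = 0.00939), but not without those numbered 3 and 4. Without KO RA839 array 1 both probe sets passed (adjusted p of 0.0469 for 1417394_at and 0.037 for 1417395_at). So did 1417394_at when only the groups compared were fitted (0.048) and 1417395_at without WT RA839 array 2 (0.0426). Both missed in the other fits under RA839. In DMSO the difference of 1417394_at was 0.59 without the KO arrays numbered 1 and 2 and -0.24 without those numbered 3 and 4, neither past the threshold.

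Klf2, a Krüppel-like factor that keeps monocytes quiescent, had no call in any comparison. It read 8.29, 8.28, 7.06 and 7.19 in KO cells with RA839 and 8.44, 8.48, 7.58 and 7.35 in KO cells with DMSO, against 7.16, 7.97, 7.52 and 7.11 in WT cells with RA839 and 7.69, 7.14, 8.08 and 8.30 in WT cells with DMSO. All 4 groups overlapped. KO arrays 1 and 2 were above KO arrays 3 and 4 under both treatments. RA839 minus DMSO in WT cells was -0.36, and -0.76 (adjusted p = 0.606) without both arrays numbered 2. The largest siRNA difference from siControl was that with siKeap1-2, at 0.27 (adjusted p = 0.298).

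**Figure D3:**
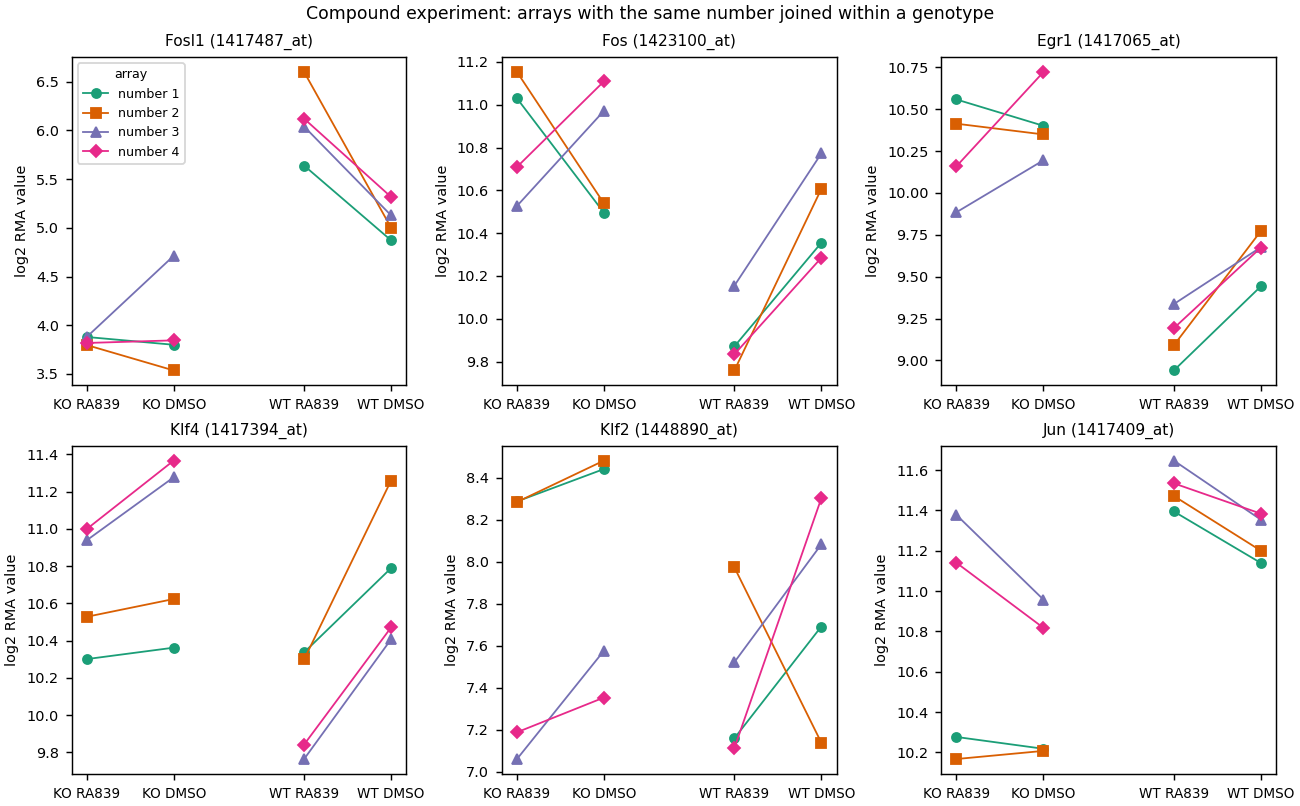
log2 RMA value (vertical axis) of 6 probe sets in the compound experiment, with KO groups at the left and WT groups at the right of each panel and a line joining arrays with the same number from RA839 to DMSO. KO arrays 1 and 2 lie apart from 3 and 4 for Klf4, Klf2, Jun 1417409_at and, in opposite ways under the 2 treatments, Fos. All 4 WT lines run the same way for Fosl1, Fos, Egr1, Klf4 and Jun, necessarily so since the 2 WT groups do not overlap there.

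In 7 of the 15 probe sets KO arrays 1 and 2 lay on the same side of KO arrays 3 and 4 under both treatments, as they did in 33.7% of all probe sets. Arrays 1 and 2 were the higher ones for Klf2, Fosl2 1437247_at and Jund 1440265_at, and the lower ones for both Jun and both Klf4 probe sets. Jun 1448694_at read 12.82, 12.76, 13.24 and 13.18 in KO cells with RA839 and 12.78, 12.77, 13.04 and 13.07 in KO cells with DMSO. Fos split in both KO groups in opposite ways, arrays 1 and 2 being higher with RA839 and lower with DMSO, as did 3.40% of all probe sets. Egr1 was higher in KO cells with either pair left out, at 0.82 and 0.73 in DMSO and 0.88 and 1.35 under RA839 (without numbers 1 and 2, and without numbers 3 and 4). What the numbers share is not given in the labels.

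The pathway around these factors was read in 7 lists, with each gene represented by its brightest probe set. For RA839 in WT and in KO cells limma called 0 genes of the 7 lists, against 0.561% (0.484% higher, 0.0770% lower) and 0% of the 18193 genes. The genotype difference of that response gave 0 as well, against 0.0770% of all genes. At an unadjusted p under 0.05 each list held 1 to 5 genes in WT cells, the 5 being AP-1 target genes and all lower, where 9.91% of all genes were at that level and 4.42% were lower. Each list held 0 to 1 in KO cells and for the genotype difference, against 1.62% and 3.47% of all genes. Between KO and WT cells 23.8% of all genes passed in DMSO (10.6% higher, 13.2% lower) and 29.3% under RA839 (14.0% and 15.3%). With siKeap1-1 13.6% passed (7.77% higher, 5.85% lower), and with siKeap1-2 9.77% did (5.46% and 4.31%). Between siKeap1-1 and siKeap1-2 the share was 6.32% (2.99% higher and 3.33% lower with siKeap1-1). No list was set against other lists by a test.

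Of 12 measured kinases upstream of AP-1, 5 were higher and 2 lower in KO cells under RA839, and likewise in DMSO. Map2k6, which activates p38, rose by 1.17 under RA839 and by 1.33 in DMSO in KO cells, and Mapk9, a Jun N-terminal kinase, was at -0.96 and -0.52. With siKeap1-1, 5 kinases were higher and 1 lower, among them Map2k3 at 0.47. With siKeap1-2, 1 was higher, Mapk9 at 0.45, and 1 lower, Map2k6 at -0.55.

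Of 8 serum response factor partners and CREB family genes, 4 were higher in KO cells under RA839 and 2 in DMSO, with 0 lower in either. Crem, whose short form represses cyclic AMP response genes, was higher in KO cells by 0.38 under RA839 and 0.71 in DMSO. It was lower with both siRNAs, at -0.34 with siKeap1-1 and -0.55 with siKeap1-2. In all, 1 of the 8 was higher and 2 lower with siKeap1-1, and 0 were higher and 1 lower with siKeap1-2. In the list of 14 other immediate early transcription factors, 3 were higher and 0 lower in KO cells under RA839 (Ier2 at 1.04, Csrnp1 at 0.78 and the nuclear receptor Nr4a2 at 0.72), and 1 in DMSO (Nr4a2 at 1.10). With siKeap1-1, 0 were higher and 5 lower, and with siKeap1-2, 0 were higher and 2 lower (Ier2 at -0.32 and Ier5 at -0.27).

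Of 12 other leucine zipper partners, 0 were higher and 5 lower in KO cells under RA839, and 0 were higher and 1 lower in DMSO. The small Maf genes Maff and Mafg, whose proteins pair with Nrf2, were at -1.16 and -1.10 in KO cells under RA839. Mafg rose by 0.69 with siKeap1-1 and by 0.73 with siKeap1-2, and Maff rose by 0.62 and 0.55. In all, 5 of the 12 were higher and 2 lower with siKeap1-1, and 2 were higher and 0 lower with siKeap1-2.

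Among 18 feedback inhibitors of the immediate early response, 5 were higher and 4 lower in KO cells under RA839, and 3 were higher and 2 lower in DMSO. Zfp36l1, which promotes decay of AU-rich RNA, was higher in KO cells by 2.15 and 1.64, and Dusp4, a MAP kinase phosphatase, was lower, at -1.64 and -1.15. With siKeap1-1, 3 were higher and 3 lower, with Zfp36l1 at -0.79 and Dusp4 at 0.60. With siKeap1-2, 3 were higher and 6 lower, among them Dusp1 at -0.35. Of 12 other Krüppel-like factors, 3 were higher and 2 lower in KO cells under RA839, led by Klf16 at 1.76 and Klf15 at -1.74, and 2 were higher and 2 lower in DMSO. With siKeap1-1, 1 was higher and 4 lower, and with siKeap1-2 limma called 0 of the 12, with 4 at an unadjusted p under 0.05, as were 23.8% of all genes. Klf6 and Klf10, lower with siKeap1-1, stand in this list and in that of immediate early factors.

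Of 17 measured textbook AP-1 target genes, 6 were higher and 1 lower in KO cells under RA839, and 2 were higher and 1 lower in DMSO. With siKeap1-1, 1 was higher and 4 lower, and with siKeap1-2, 0 were higher and 10 lower. The list's median difference was 0.58 under RA839 and 0.14 in DMSO for KO cells, -0.15 with siKeap1-1 and -0.37 with siKeap1-2, beside -0.01, -0.02, 0.02 and 0.03 over all genes. Mmp9, a gelatinase, was higher in KO cells by 1.61 under RA839 and 1.26 in DMSO, and lower with the siRNAs, at -1.89 with siKeap1-1 and -1.34 with siKeap1-2. The chemokine gene Ccl2 was at -1.49 with siKeap1-1 and -2.21 with siKeap1-2, and the interleukin-1 beta gene Il1b was at -1.07 and -1.14. With siKeap1-1 relative to siKeap1-2, 5 target genes were higher and 0 lower, among them Plau, the urokinase gene, at 0.75 and Timp1, a metalloproteinase inhibitor gene, at 0.70. In that comparison 3 of the 12 kinases were higher and 0 lower, 3 of the 18 feedback inhibitors were higher and 0 lower, and 1 was higher and 1 lower in each of the lists of serum response factor partners and leucine zipper partners. Of the 14 other immediate early factors 0 were higher and 3 lower (Nr4a2 at -0.44, Bhlhe40 at -0.33 and Klf10 at -0.33), and of the 12 other Krüppel-like factors 0 were higher and 2 lower, Klf11 at -0.83 and Klf10. The AP-1 target genes also answer to other factors, NF-kappa B among them.

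**Figure D4:**
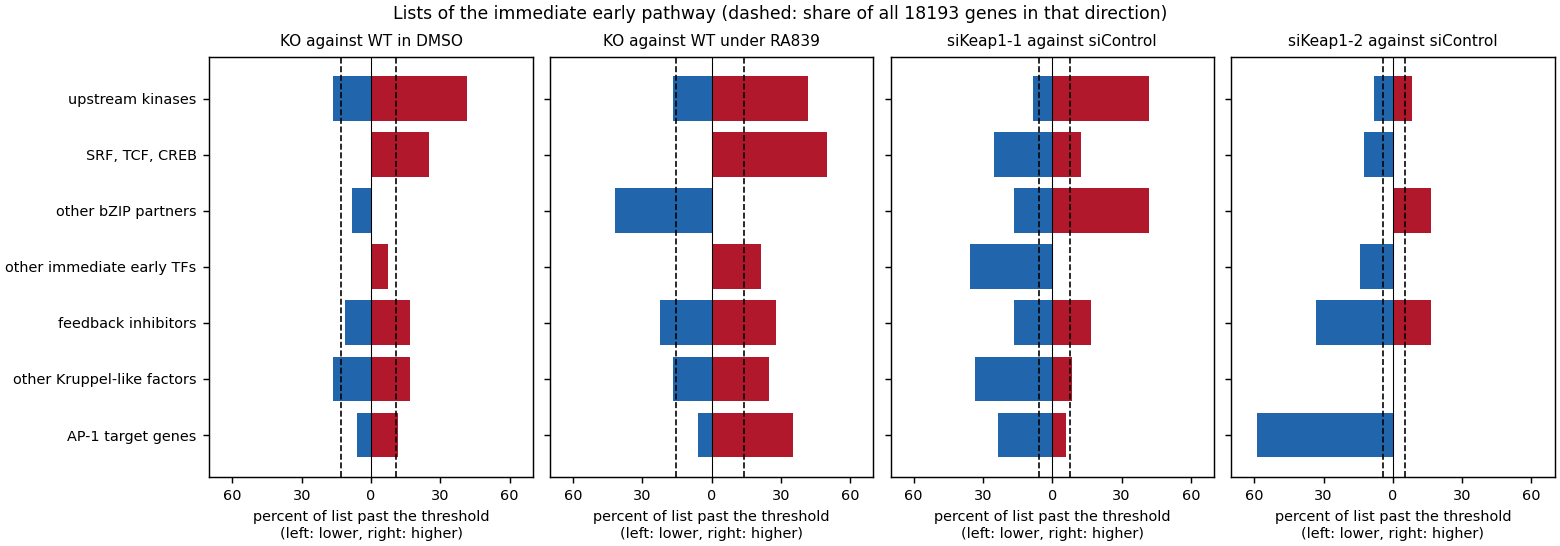
Percent of each of 7 gene lists (rows) past a limma adjusted p of 0.05, higher to the right and lower to the left of 0, in 4 comparisons (panels), with dashed lines at the share of all 18193 genes in that direction. The bar of AP-1 target genes with siKeap1-2 reaches 10 of 17 genes to the left and 0 to the right.

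Markers of cell types moved with some of these groups. The mean log2 value of the 10 macrophage markers ran from 12.80 to 12.93 with siKeap1-1 and from 12.72 to 12.83 with siKeap1-2, against 13.05 to 13.17 with siControl, without overlap. Of these 10, 0 were higher and 5 lower with siKeap1-1, and 0 were higher and 3 lower with siKeap1-2, with Fcgr1 at -0.72 and -1.06. The mean of 5 erythroid and megakaryocyte markers, of 7 listed, ran from 8.45 to 8.91 and from 8.53 to 8.87 with the 2 Keap1 siRNAs, against 7.92 to 8.22 with siControl, where Ppbp alone passed, at 3.03 with each siRNA. The 5 endothelial markers averaged 6.42 to 6.51 and 6.36 to 6.46, against 6.55 to 6.66 with siControl, and 2 of them passed as lower with siKeap1-2. The 6 mast cell and basophil markers also lay apart with siKeap1-1, at 4.29 to 4.39 against 4.17 to 4.29 with siControl. With siKeap1-1, 2 of 9 neutrophil markers were higher (Elane at 0.53 and S100a8 at 0.52) and 2 of 6 dendritic cell markers lower (Ccr7 at -0.91 and Flt3 at -0.52), and with siKeap1-2 S100a8 was higher, at 0.55. Of the list means in the compound experiment, only that of the erythroid and megakaryocyte list separated KO from WT arrays of 1 treatment, at 7.64 to 7.94 in KO cells with RA839 and 7.97 to 8.51 in WT cells with RA839. The macrophage markers overlapped there, though Cd14 and Fcgr1 were higher in KO cells, by 1.98 and 2.23 under RA839 and by 1.83 and 1.98 in DMSO, and Itgam was lower, at -0.80 and -1.04. Of 9 neutrophil markers 2 were lower in KO cells under RA839 and 3 in DMSO, with 0 higher, and S100a8 was at -0.85 and -0.97. Of 7 fibroblast and stromal markers 3 were lower and 0 higher under either treatment, with Dcn at -0.59 in each. In the erythroid list 1 was higher and 2 lower under RA839 (Ppbp at -1.74) and 1 was lower in DMSO, and of 5 endothelial markers 1 was higher and 1 lower under either treatment (Kdr at 1.27 and 0.88, Cdh5 at -0.59 and -0.79). Cd4 alone of 6 T and NK cell markers was lower in KO cells, at -0.71 under RA839 and -0.77 in DMSO, while the B cell marker Cd79a was higher under RA839, at 0.53, and the dendritic cell marker Siglech in DMSO, at 0.25. The part of these shifts in the results for the 10 genes was not tested.

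Genes with the most similar profile over the 16 compound arrays were found by Pearson correlation of log2 values, as a description across arrays of 4 shared groups. For Fosl1 they were Cdcp1 (0.974), Abcc4 (0.970) and Abcc1 (0.967), the last 2 encoding export pumps. For Egr1 they were Chsy3 (0.976), Cass4 (0.946) and Lmbr1l (0.944). For Fosb they were Larp4 (0.940), 1600020E01Rik (0.929) and Kansl1l (0.926). For Fos they were Egr1 (0.882), Zfp189 (0.877) and Lmbr1l (0.873). These 4 members had the widest range of compound group means, from 0.95 for Fos to 2.26 for Fosl1.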

How the data were processed

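Expression was measured on 28 Affymetrix mouse arrays. The authors deposited log2 values for each array. Per the submitters' processing notes RMA was used, and no version is stated there. Array medians lay between 5.61 and 5.71 in the compound experiment and between 5.91 and 5.96 in the siRNA experiment, and each experiment was fitted alone. RMA compresses differences between dim probe sets, and the number of arrays limits the precision. Of 45101 probe sets, 34945 named 1 gene in the platform annotation and were tested, with 932 naming several genes left out. Group means were modelled with limma 3.58.1 under R 4.3.3, variances were moderated by eBayes with no trend, and two-sided p-values were adjusted by Benjamini-Hochberg over 34945 probe sets. The scripts were tested on simulated data. A set of 8 comparisons was made, and the interaction was coded as the WT response minus the KO response.

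The 10 genes and the lists were chosen with earlier results of these data known. All probe sets of the 10 genes were reported, up to 4 genes past the threshold were named from each other list in each comparison, by absolute difference, and likeness was given for the 4 members with the widest range of compound group means. A list gene was read from its brightest probe set by mean over 28 arrays, and 9 genes of the 7 lists and 8 listed markers were not analysed here. Same-numbered arrays deviated together within WT (correlation across probe sets of 0.18 to 0.40) and within KO (0.61 to 0.64), and for siKeap1-2 with siControl (0.26 to 0.63), so the numbers, which come from the labels, were taken as pairs there. Correlations between arrays with different numbers were not computed. The values for same-numbered arrays therefore cannot tell pairs from a shared split of arrays, such as numbers 1 and 2 against 3 and 4 in KO cells. Alternatives were a replicate block, a trended robust prior, only the groups compared, brighter probe sets, quantile or median normalization, array weights, 1 probe set per gene, a threshold of 0.01 and each array left out. Added after seeing the data were fits without WT arrays numbered 2, KO arrays numbered 1 and 2, or KO arrays numbered 3 and 4. Promoters came from RefSeq (GRCm38.p6).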

Additional observations from a re-analysis of the deposited data

Results flagged for a closer look

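In 105 groups of 4 arrays, 1 for each probe set and group, 5 held an array far from the other 3 by Dixon's criterion, and chance gives about 1 in 20. Fosb in KO cells with DMSO read 3.44 on array 2, with the nearest array at 4.27, and in KO cells with RA839 it read 3.85 on array 4, with the nearest at 4.01. Junb in KO cells with DMSO read 6.95 on array 1, with the nearest at 7.11. Egr1 with siKeap1-2 read 10.17 on array 3, with the nearest at 10.02. Klf4 1417394_at with siControl read 10.19 on array 1, with the nearest at 9.81, and its siKeap1-2 difference without that array was -0.43 (adjusted p = 0.0556).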

How the results depend on the processing

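Of 2128 values under alternatives, 2042 kept their side of the threshold, 50 lost a call, 36 gained one and 0 called values changed sign; differences short of the threshold could, as Klf4 did between genotypes in DMSO. For RA839 in WT cells the count of probe sets past the threshold was 0 (147 of all 34945). With the replicate block within genotype it was 3 (Fosl1 and both Klf4 probe sets), where 558 of all passed. The count was 1 (Fosl1) with a trended robust prior (143 of all), quantile normalization (154), array weights (238) or 1 probe set per gene (120 of 18193). Leaving out 1 array gave 0 to 1, with the 1 reached without WT RA839 array 1, where 159 of all passed. For KO against WT in DMSO the count of 4 (7890 of all 34945) became 2 among the 10 brighter probe sets (4770 of all 17472). It was 3 to 4 with 1 array left out (6014 to 7295 of all). Under RA839 the count of 5 (9854 of all) became 3 among the brighter probe sets (6310 of 17472) and 3 at an adjusted p under 0.01 (5278 of all). With array weights (11690 of all) or without both WT arrays numbered 2 (9723) it was 7 (5 higher, 2 lower, both Klf4 probe sets added). With 1 array left out it was 3 to 6 (7899 to 9468 of all), the 3 without WT RA839 array 3 or KO RA839 array 2. For siKeap1-2 the count of 8 (3064 of all) became 5 by gene (2038 of 18193) and 2 at an adjusted p under 0.01 (1436 of all). It was 6 to 7 with 1 array left out (2011 to 2723 of all). For siKeap1-1 the count of 6 (4318 of all) became 4 at an adjusted p under 0.01 (2157 of all). With the replicate block it was 8 (2 higher, 6 lower), against 6798 of all. With 1 array left out it was 4 to 7 (3076 to 3996 of all), the 4 without siControl array 2 or 3 or siKeap1-1 array 1 or 4. The cause was not tested, except that fewer than 15 members are tested by 1 probe set per gene (10) and among the brighter probe sets (10 in the compound and 11 in the siRNA experiment). Same-numbered siKeap1-1 and siControl arrays correlated at 0.096 to 0.61, short of the rule for pairs. There the replicate block added Jund (adjusted p = 0.0456) and Egr1 (adjusted p = 0.0373), and between genotypes (-0.25 to -0.01 in DMSO) it changed no call. The replicate block changed no other call. Fosb and Fosl1 in KO cells lie where RMA values compress differences.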
